A study of Danaus plexippus with 48 samples.

Results

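Brain gene expression of migrating monarch butterflies (Danaus plexippus) was compared with that of butterflies kept on long days, once for hours when the lights were on in both groups and once for hours when they were off in both. The members were chosen by the group and the zeitgeber time (ZT, hours after lights-on) in the sample labels, and were 28 of the 48 libraries of the series. The lit hours were ZT1, ZT4, ZT7 and ZT10, with 8 libraries a side, and the dark hours were ZT16, ZT19 and ZT22, with 6 libraries a side. The 4 libraries of these groups at ZT13, when the lights were still on in the long-day group and already off in the migrants, entered no contrast. The question was whether the migrants differ from long-day butterflies alike by day and by night.

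The long-day group (LP) was raised in the laboratory from eggs of wild-type parents, on a semi-artificial diet, and kept on 15 h of light and 9 h of dark. The Migrant group consisted of wild butterflies caught during the fall migration and kept on 11 h of light and 13 h of dark. Both groups spent at least 7 days in their cycle at 21 °C as adults. A library was a pool of 3 brains without the pigmented photoreceptor layer of the retina, with 2 pools for each group and time, replicate 1 labelled female and replicate 2 male. The remaining group (SP), kept on 10 h of light and 14 h of dark, did not enter the fit, and its 16 libraries are quoted for level only. Migrant libraries were made with another stranded kit (NEBNext Ultra Directional) than LP and SP libraries (TruSeq Stranded), so day length, wild origin, rearing and kit cannot be told apart in any Migrant minus LP difference. The clock hours were matched but not the time since the lights changed: ZT16 fell 1 h after lights-off in LP and 5 h after it in Migrant, and ZT10 fell 5 h before lights-off in LP and 1 h before it in Migrant.

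Animals tell the hour and the season from the daily light cycle. In insects a circadian clock built on transcription feedback, in which the proteins period, timeless and cryptochrome act back on the factors that switch on their genes, drives daily cycles of transcription in the brain, and light resets it. In monarchs, shortening days in late summer accompany the change to a migratory generation, whose females and males are in reproductive diapause, and migrants use a sun compass corrected for the time of day by circadian clocks. A seasonal difference in a brain transcript may therefore be present at all hours or at some of them. Samples taken in light and in darkness allow the groups to be compared in each.

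The values were the deposited FPKM (fragments scaled to transcript length and to the number of mapped reads), rescaled to a common level by the median ratio over the 10595 genes above 0 in all 48 libraries. Of 15130 genes, 11600 had a mean scaled FPKM of 0.5 or more and were tested with limma, and a gene was called at an adjusted p under 0.05. The tables pair no identifier with a gene name and none was found in the reference gene table, so genes are given by identifier and scaffold position. For the same reason the brain label could not be checked against marker genes, and no gene list of a pathway was run. Reads in genes, recovered from the confidence limits, ran from 7.3 M to 10.5 M in LP and from 5.8 M to 7.7 M in Migrant (M, 1e6 reads). Where pools hold fewer cells of a type or less RNA per cell, these bulk values cannot tell the 2 apart.

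A pair of Migrant libraries stood apart from the other 26 libraries. Migrant ZT22 replicate 1 had 227 genes at least 4-fold below all 27 other libraries, and its correlation with its own pair was 0.871 across genes. Migrant ZT10 replicate 2 had 64 genes at least 4-fold above all others, and its correlation with its pair was 0.946. Every other library had 0 to 3 such genes above and 0 to 2 below, and the pools of every other pair correlated at 0.969 to 0.982. The identifier with the highest mean FPKM, DPOGS214898 (scaffold DPSCF300579, 8635 to 8705), was chosen after its values were seen. It stood at a scaled FPKM of 13995 in Migrant ZT22 replicate 1, from 41.4 reads. In the other Migrant libraries of the contrasts it stood between 352154 and 1367490.1, and in those of LP between 1272654 and 1906017. In lit hours 7285 reads per LP library and 2872 per Migrant library lay behind its values. Its span is short, and FPKM is scaled to length, so these values do not rank it by reads. The spread between pools was unequal as well. The median residual SD on the log2 scale was 0.146 in LP, 0.286 in Migrant and 0.161 in Migrant without ZT22, and all contrasts share one spread of 0.238. Results that rest on Migrant ZT22 replicate 1 are therefore given with and without it.

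**Figure D1:**
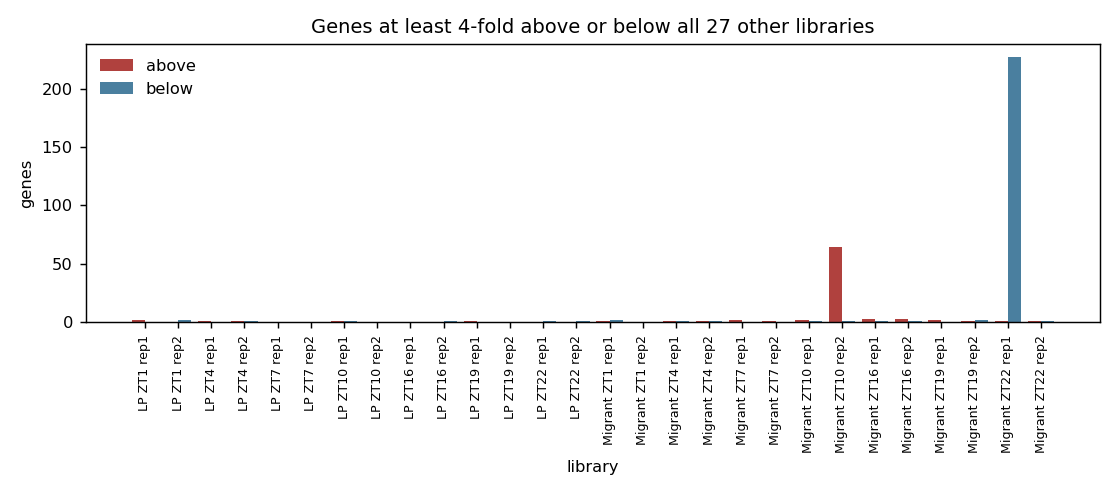
Number of tested genes (vertical axis) in which each of the 28 libraries (horizontal axis) lay at least 4-fold above (red) or below (blue) all 27 others. Migrant ZT22 replicate 1 had 227 genes below and Migrant ZT10 replicate 2 had 64 above, against at most 3 in any other library.

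In lit hours, the migrants differed from LP in a large share of the brain transcriptome, mostly by less than 2-fold relative to the median gene. Of 11600 genes, 4954 were called, 42.7% of those tested. In Migrant 2415 were higher (20.8%) and 2539 lower (21.9%), with a median difference over all tested genes of −0.01 on the log2 scale. This near balance is set by the scaling, which centres the genes: with FPKM as deposited the median was −0.35 in lit and −0.42 in dark hours, and 11.3% of lit calls and 8.46% of dark calls were higher in Migrant. Folds here and below are of scaled FPKM plus 1, so for genes at low levels they are smaller than folds of FPKM. At least 2-fold differences were found in 303 genes higher (2.61%) and 276 lower (2.38%), at least 4-fold in 43 higher (0.371%) and 62 lower (0.534%), and at least 8-fold in 10 higher (0.0862%) and 20 lower (0.172%). The libraries of the groups did not overlap in 1282 genes that were higher in all 8 Migrant libraries (11.1%) and 1467 that were lower in all 8 (12.6%).

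In dark hours the picture was similar in size. There 4268 genes were called, 36.8% of those tested, with 2030 higher (17.5%) and 2238 lower (19.3%) in Migrant, and the median difference over all tested genes was −0.04. At least 2-fold differences were found in 285 genes higher (2.46%) and 327 lower (2.82%), at least 4-fold in 47 higher (0.405%) and 79 lower (0.681%), and at least 8-fold in 12 higher (0.103%) and 22 lower (0.190%). The 6 Migrant libraries all lay above those of LP in 1044 genes (9.00%) and all below in 1088 (9.38%). Without Migrant ZT22 replicate 1, 5753 genes were called in dark hours and 6549 in lit hours. All 4954 lit calls were among these 6549 in the same direction, and 3991 of the 4268 dark calls (93.5%) were among the 5753. The library left out is a dark one, so the lit differences stayed the same and only the shared spread changed. That the lit calls were kept is therefore no check of them.

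The direction of the difference was seldom other in dark than in lit hours. In lit and dark hours 3517 genes were called in the same direction, 30.3% of those tested, which is 71.0% of the lit calls and 82.4% of the dark calls. Of these 1705 were higher in Migrant (14.7%) and 1812 lower (15.6%), and the difference reached 2-fold in both sets of hours for 204 of the higher (1.76%) and 212 of the lower genes (1.83%), and 4-fold for 31 (0.267%) and 52 (0.448%). In 686 genes every Migrant library of the lit and of the dark hours lay above those of LP (5.91%), and in 720 every one lay below (6.21%). A single gene was called in opposite directions (0.00862%), 1436 were called in lit hours only (12.4%), 750 in dark hours only (6.47%) and 5896 in neither (50.8%). Genes called in only one of the contrasts mostly had the same sign in the other: 1372 of the 1436 lit-only genes (95.5%) and 714 of the 750 dark-only genes (95.2%). Over all 11600 genes the sign was shared by 9686 (83.5%). The lit and dark contrasts share no library. Without Migrant ZT22 replicate 1 the shared calls numbered 5088, and 3408 of the 3517 (96.9%) were among them.

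The log2 differences in lit and dark hours correlated at r = 0.867 across genes, and at 0.877 without Migrant ZT22 replicate 1, as a description over genes that are not independent of each other. The correlation of Migrant minus LP differences across genes, time against time, had a median of 0.706 (0.641 to 0.738) over the 6 pairs of lit times and of 0.713 (0.471 to 0.746) over the 12 pairs of a lit with a dark time. Over the 3 pairs of dark times it was 0.491 (0.453 to 0.78), or 0.692 without Migrant ZT22 replicate 1. The low dark median rests on the pairs with ZT22: the pair of ZT16 with ZT19 correlated at 0.78, above the 8 pairs of a lit time with ZT16 or ZT19 (0.685 to 0.746) and the 6 pairs of lit times. At the held-out ZT13, lit in LP and dark in Migrant, the sign was as in lit hours for 97.1% of the lit calls, beside 82.8% of all tested genes. It was as in dark hours for 96.4% of the dark calls, and as in both for 98.6% of the shared calls. Among shared calls the fold was larger in dark hours in 54.3%, or 57.9% without Migrant ZT22 replicate 1.

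**Figure D2:**
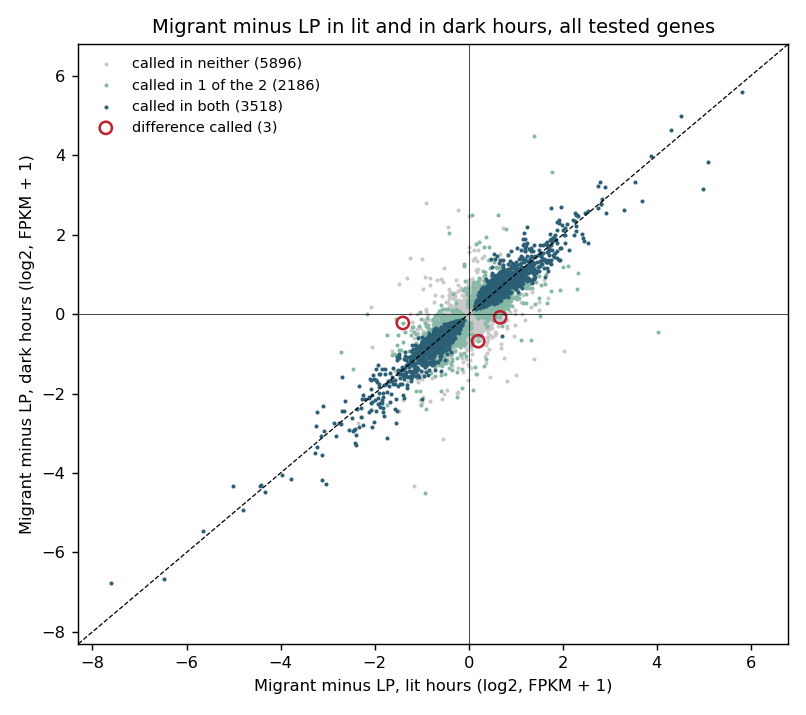
Migrant minus LP difference of each of 11600 tested genes in lit hours (horizontal) and dark hours (vertical), log2 of scaled FPKM plus 1, with the line of equal differences dashed. Genes called in both contrasts (dark blue, the gene of opposite signs included) lie along the line, and the 3 genes whose difference of contrasts was called are circled in red.

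By the rule for named genes (the largest fold changes with the same sign at every time point, at least 10 reads per library on the higher side and a mean FPKM of 1 or more), the same 4 genes came first in lit and in dark hours. DPOGS207200 (scaffold DPSCF300001, 5812782 to 5813623) was near the floor in LP and far higher in all migrants, with 11.9 and 382 reads per library in lit hours. In lit hours its scaled FPKM was 0.494, 1.13 and 1.81 in LP (lowest, median and highest of 8) and 39.8, 46.8 and 52.9 in Migrant. In dark hours it was 0.717, 1.44 and 1.6 in LP (of 6) and 65.8, 70.8 and 85.4 in Migrant. The groups were far apart at both times, and the dark Migrant libraries all lay above the lit ones. The difference was 4.52 ± 0.12 (log2, SE, limma, adjusted p = 1.09e-13) in lit hours and 4.99 ± 0.14 (adjusted p = 2.24e-13) in dark hours. The lit difference was smaller by 0.47 ± 0.18 on the log2 scale, which did not pass the test over all genes (limma, p = 0.019, adjusted p = 0.952), and the Migrant light minus dark difference of −0.60 had an adjusted p of 0.0902. At ZT13 the Migrant libraries held 53.6 and 61.4, between the lit and dark medians. SP libraries, at 0.84, 1.52 and 5.49, were at the level of LP, so this gene was high in Migrant and not in SP. SP shares its library kit with LP and not with Migrant, and Migrant against SP was not tested.

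DPOGS213995 (scaffold DPSCF302071, 310 to 434) was also much higher in migrants, but from few reads. In lit hours its scaled FPKM was 0, 6.26 and 34.4 in LP, listed at 0 in 4 of 8 libraries, and 90.4, 246 and 605 in Migrant. In dark hours it was 0, 12.9 and 89.6 in LP, listed at 0 in 2 of 6 libraries, and 146, 448 and 862 in Migrant. The groups did not overlap in either set of hours. On average 0.75 reads per LP library and 16 per Migrant library lay behind the lit values. The fitted differences of 5.82 ± 1.03 in lit hours (limma, adjusted p = 0.000253) and 5.6 ± 1.19 in dark hours (adjusted p = 0.00157) depend on the pseudocount, since many LP libraries are at 0. SP libraries, at 17.1, 96.3 and 206, lay between, overlapping both groups.

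DPOGS211342 (scaffold DPSCF300173, 726957 to 728023) was the gene that fell most. In lit hours its scaled FPKM was 589, 1079.9 and 3327 in LP and 0, 7.41 and 27.7 in Migrant. In dark hours it was 828, 1255 and 2872 in LP and 3.84, 11.5 and 32 in Migrant. A gene with a high FPKM in every long-day library was thus near the detection floor in every migrant library. In lit hours 460.5 reads per LP library and 2.37 per Migrant library lay behind these values. The difference was −7.61 ± 0.71 in lit hours (limma, adjusted p = 4.38e-07) and −6.76 ± 0.82 in dark hours (adjusted p = 1.03e-05), and the SP libraries held 263, 1873 and 7594, also far above Migrant.

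DPOGS214529 (scaffold DPSCF300287, 19956 to 31315) was likewise lower in migrants. In lit hours its scaled FPKM was 104, 208 and 414 in LP and 1.63, 3.16 and 7.57 in Migrant. In dark hours it was 92.1, 157 and 216 in LP and 1.6, 2.74 and 3.23 in Migrant. No Migrant library came near any LP library, and the difference was −5.65 ± 0.25 in lit hours (limma, adjusted p = 1.81e-10) and −5.46 ± 0.29 in dark hours (adjusted p = 2.14e-09). The lit and dark differences of these last 2 genes could not be told apart at this spread (limma, adjusted p of the difference of contrasts = 0.952 for both). SP libraries of DPOGS214529, at 63.2, 285 and 699, were near LP.

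**Figure D3:**
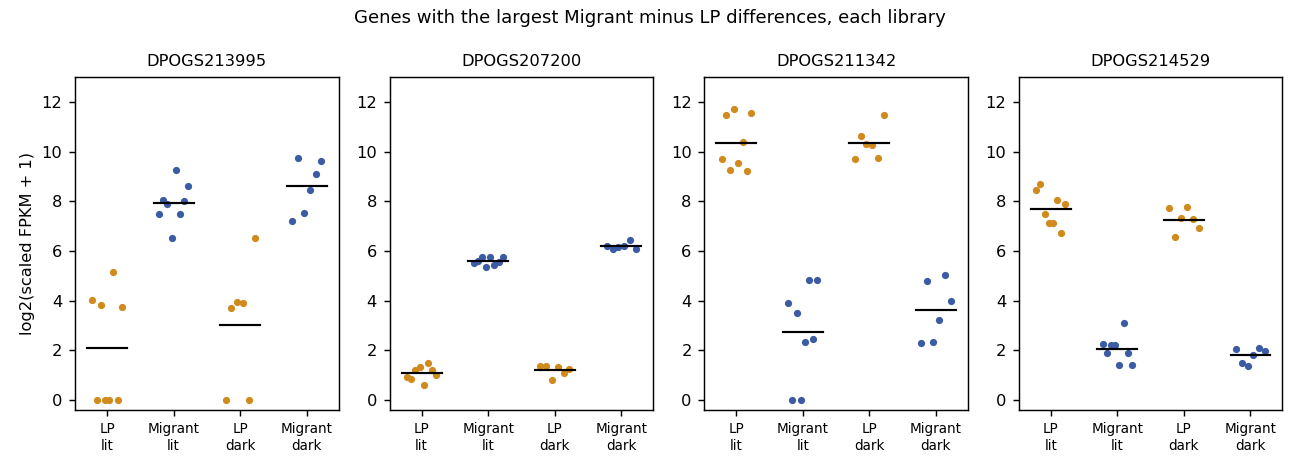
Level of the 4 genes with the largest Migrant minus LP differences, as log2 of scaled FPKM plus 1, in each library by group and light (8 lit and 6 dark libraries a group, spread sideways for view). Bars are means. DPOGS213995 and DPOGS207200 are higher and DPOGS211342 and DPOGS214529 lower in Migrant, with no overlap in lit or dark hours.

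An 8-fold difference of scaled FPKM plus 1 was reached in both sets of hours by 7 genes that were higher (0.0603%) and 16 that were lower (0.138%) in Migrant. The 4 genes named above are included. The 7 higher genes lay on 7 scaffolds, with differences of 3.54 to 5.82 in lit and 3.14 to 5.6 in dark hours, and 4 of them spanned less than 500 bases. Libraries did not overlap in lit or dark hours for 4 of the 7, and 3 were listed at 0 in most LP libraries of lit hours. The mean of SP lay on the Migrant side of LP for all 7, however little, as for DPOGS207200. Genes chosen as low in LP leave SP little room to lie below it, so this count says little about SP. The 16 lower genes lay on 14 scaffolds, with differences of −7.61 to −3.03 in lit and −6.76 to −3.07 in dark hours, and libraries did not overlap for 15 of them. For these the mean of SP lay on the Migrant side of LP in 7 of 16, and the share over all tested genes is not given here. Low reads go with these extreme folds: 14 of the 16 lower genes had under 10 reads per Migrant library in lit hours, and 4 of the 7 higher genes had under 10 per LP library. On-off patterns were rare. The genes listed at 0 in every Migrant library and above 0 in every LP library numbered 2, DPOGS204864 (0.132 to 5.89 in LP, 9.47 reads per library) and DPOGS213566 (52 to 245, 6.28 reads). The reverse held for 1, DPOGS205140 (0.0386 to 0.472 in Migrant, 4.9 reads). All 3 were chosen after their values were seen.

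Most genes that were at least 2-fold different in both sets of hours stood alone among tested genes, 163 of 204 higher and 192 of 212 lower genes. A few were next to each other in the genome, and whether more often than by chance was not tested. Runs of 3 or more consecutive tested genes that were at least 2-fold different in the same direction in lit and in dark hours occurred at 5 places on 4 scaffolds, among 774 scaffolds with a tested gene. Scaffold DPSCF300307 held the runs of lower genes, 3 genes from 79099 to 90753 and 5 genes from 102326 to 113123, among 24 tested genes. In the first run the mean scaled FPKM in lit hours was 663 to 2137 in LP and 84.1 to 248 in Migrant, from 236 to 1066 reads per LP library. SP means were 1318 to 3940.1, and all 3 genes had no overlap of libraries. Its differences were −3.24 to −2.28 in lit hours and −3.35 to −2.15 in dark hours. The second run had means of 31.4 to 77.6 in LP and 4.46 to 14.8 in Migrant, differences of −3.22 to −2.07 in lit and −2.95 to −1.82 in dark hours, and no overlap in 1 of its 5 genes. By the deposited coordinates 4 of these 5 genes, at separate positions, have the same span of 364 bases. Whether they are similar in sequence and share reads was not tested.

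The runs of higher genes had 3 genes each. On scaffold DPSCF300200, from 94883 to 116726, mean scaled FPKM in lit hours was 0.12 to 0.42 in LP and 2.97 to 7.78 in Migrant, with differences of 1.69 to 2.45 in lit and 1.36 to 2.02 in dark hours, and no overlap of libraries in any of the 3. SP means there were 0.30 to 1.06, in each gene above the LP mean and below the Migrant mean. On scaffold DPSCF300263, from 40073 to 175573, means were 2.28 to 12.4 in LP and 10.9 to 37.5 in Migrant, while SP, at 0.09 to 1.32, was below both. On scaffold DPSCF300223, from 23637 to 44273, means were 0.52 to 2.38 in LP, 2.53 to 10.5 in Migrant and 0.39 to 2.79 in SP. In each of these 2 runs libraries did not overlap in 2 of the 3 genes. The gene with the fewest reads in lit hours had 2.62 per LP and 6.87 per Migrant library on DPSCF300263. On DPSCF300223 it had 1.12 and 4.5. By their means the genes of these 3 regions were thus higher in migrants than in both laboratory groups, of which the comparison with SP was not tested. Neighbouring genes can share transcripts in the deposited gene models, and whether these runs are separate transcripts was not tested.

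The test of the difference between the lit and dark contrasts called 3 genes, 0.0259% of those tested, and 336 genes had an unadjusted p under 0.05, beside the 580 that this threshold allows for by chance. This small count does not show that other genes differ alike by day and night. Without Migrant ZT22 replicate 1, 607 genes had an unadjusted p under 0.05 and 3 were again called, of which 2 were the same. The gene new among these, DPOGS209661, rested on 1 read in 1 library. With the replicate number, which is also the sex label in both groups, as a replicate block, 0 genes were called (limma, 373 at an unadjusted p under 0.05), and the adjusted p of the 3 genes called with all 28 libraries was 0.0545 to 0.0576. In each of the 3 the level varied over the day in both groups, and the distance between the groups was large at some hours and small at others.

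DPOGS204644 (scaffold DPSCF300462, 48480 to 60775) was lower in migrants in lit hours, and the groups lay closer together in dark hours. In LP its scaled FPKM in the 2 pools was 111 and 151 at ZT1, 149 and 133 at ZT4, 65.2 and 75.6 at ZT7 and 28.7 and 30.3 at ZT10. In Migrant it was 67.3 and 62.3 at ZT1, 36.7 and 45.4 at ZT4, 19.2 and 27.7 at ZT7 and 13.1 and 10 at ZT10. At each of these 4 times both Migrant pools lay below both LP pools, although the level was lower at ZT10 than at ZT4 in both groups. SP pools, which entered no test, held 60.2 and 87.4, 41 and 54, 25 and 28.2, and 12.7 and 10.9 at these times. All of these also lay below both LP pools of the time. In the dark, LP held 29.8 and 36.1 at ZT16, 67.1 and 69.9 at ZT19 and 92.7 and 109 at ZT22. Migrant held 29.6 and 31.7, 51.7 and 56.6, and 110.1 and 65.7 at these times. In both groups the mean was higher at each later time of the night. At ZT19 both Migrant pools lay below those of LP, and at ZT22 the Migrant pools lay on either side of those of LP. The Migrant minus LP difference was −1.40 ± 0.11 in lit hours (limma, adjusted p = 8.75e-08) and −0.22 ± 0.13 in dark hours (adjusted p = 0.187), and the lit minus dark difference of these was −1.18 ± 0.17 (adjusted p = 0.0336). Within groups, light minus dark was −0.82 in Migrant (limma, adjusted p = 0.00508) and 0.36 in LP (adjusted p = 1.0). Without Migrant ZT22 replicate 1 the dark difference was −0.35 and passed the test (limma, adjusted p = 0.0172), and the difference of contrasts was −1.05 (adjusted p = 0.0109).

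DPOGS209146 (scaffold DPSCF300061, 615676 to 618767) was lower in migrants in dark hours. In LP its scaled FPKM was 56.7 and 58.9 at ZT16, 52.8 and 49.2 at ZT19 and 37.3 and 44.4 at ZT22. In Migrant it was 32.8 and 38.4, 32.5 and 30.9, and 25.8 and 24 at these times. Both Migrant pools lay below both LP pools at each dark time, although the mean was lower at each later time of the night in both groups. SP pools, which entered no test, held 50.4 and 67, 46.2 and 44.7, and 35.1 and 37.3 at these times. All of these lay above both Migrant pools of the time. In lit hours the lowest, median and highest library were 29.6, 36.2 and 51.2 in LP and 27.1, 43.4 and 68.9 in Migrant, which overlap over most of their range. In both groups the level was higher at ZT10 than at ZT1, and at ZT13, when the lights were off in Migrant only, the pools held 58.2 and 56.6 in LP and 50 and 57.5 in Migrant. The difference was 0.20 ± 0.09 in lit hours (limma, adjusted p = 0.0758) and −0.68 ± 0.10 in dark hours (adjusted p = 7.48e-05), and the difference of contrasts was 0.89 ± 0.14 (adjusted p = 0.0346). Light minus dark was 0.51 in Migrant (limma, adjusted p = 0.0358) and −0.37 in LP (adjusted p = 0.492).

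DPOGS214162 (scaffold DPSCF300014, 367036 to 388160) was higher in migrants in lit hours. In LP its scaled FPKM was 10.1 and 8.69 at ZT1, 10.3 and 8.3 at ZT4, 14.3 and 12.5 at ZT7 and 17.5 and 19.2 at ZT10. In Migrant it was 13.8 and 12.8, 21 and 18.3, 26.4 and 21.4, and 23.2 and 26.5 at these times. Both Migrant pools lay above both LP pools at each lit time. SP pools, which entered no test, held 5.21 and 7.46, 6.12 and 9.84, 10.3 and 9.84, and 12.3 and 11.8 at these times. All of these lay below both Migrant pools of the time. In dark hours the lowest, median and highest library were 10.5, 12.8 and 20.2 in LP and 10.8, 12.8 and 14.9 in Migrant, so the groups overlapped with the same median. The difference was 0.67 ± 0.08 in lit hours (limma, adjusted p = 4.56e-06) and −0.08 ± 0.09 in dark hours (adjusted p = 0.509), and the difference of contrasts was 0.75 ± 0.12 (adjusted p = 0.0389). The last, without Migrant ZT22 replicate 1, missed the threshold (0.71, limma, adjusted p = 0.0525). Light minus dark was 0.60 in Migrant (limma, adjusted p = 0.00461) and −0.15 in LP (adjusted p = 1.0). Each of these 3 calls of a difference of contrasts sits close to the threshold and was lost under many of the alternatives.

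DPOGS215159 (scaffold DPSCF300348, 125923 to 129715) was the gene called in opposite directions. In lit hours its scaled FPKM was 4.36, 11.2 and 21.5 in LP and 7.19, 14.8 and 49.5 in Migrant. In dark hours it was 6.19, 12.6 and 15.1 in LP and 4.13, 6.95 and 14.1 in Migrant. The groups overlapped in both, and the highest Migrant value came from ZT10 replicate 2, one of the libraries that stood apart. The difference was 0.70 ± 0.18 in lit hours (limma, adjusted p = 0.00407) and −0.55 ± 0.20 in dark hours (adjusted p = 0.0435). The difference of these contrasts, 1.26 ± 0.27, did not pass the test over all genes (limma, adjusted p = 0.493), and without Migrant ZT22 replicate 1 the dark call was lost (−0.46, adjusted p = 0.0905).

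**Figure D4:**
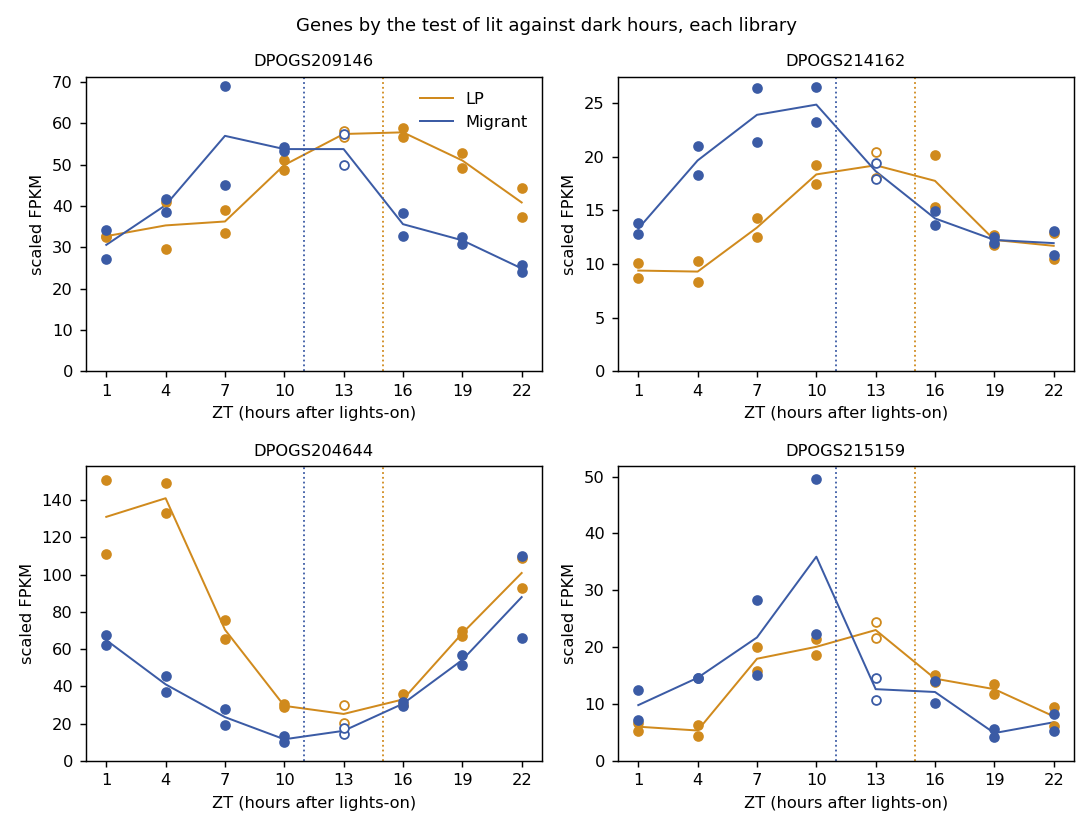
Scaled FPKM of the 3 genes called in the difference of contrasts and of DPOGS215159, in each pool by zeitgeber time (hours after lights-on), LP in orange and Migrant in blue, lines joining the means of 2 pools. Dotted lines mark lights-off in each group and open points mark ZT13, which entered no contrast. DPOGS204644 and DPOGS214162 stand apart in lit hours and DPOGS209146 in dark hours.

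The differences moved with the level and the genomic span of a gene. With tested genes ranked by mean FPKM in 4 equal sets, from the lowest set to the highest the median Migrant minus LP difference went from 0.09 to −0.13 in lit hours and from 0.07 to −0.17 in dark hours, and the share called in lit hours went from 36.4% to 50.8%. The share called also went with span, from 33.8% in the set of shortest genes to 52.7% in the set of longest in lit hours and from 31.4% to 45.3% in dark hours. These shares went, without Migrant ZT22 replicate 1, from 46.6% to 64.7% in lit and from 40.1% to 57.2% in dark hours. The median difference went with span mainly in dark hours. With genes ranked by span in 10 sets, from the shortest set to the longest, the dark median went from −0.18 to 0.04, while in lit hours it was −0.06 and −0.02 at these ends. Without Migrant ZT22 replicate 1 the dark medians were −0.05 and −0.04 at the ends, so the gradient of the median, unlike that of the share called, was not present without that library. Within ZT22, replicate 1 minus replicate 2 of Migrant had a median of −0.37 in the shortest set and 0.46 in the longest.

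**Figure D5:**
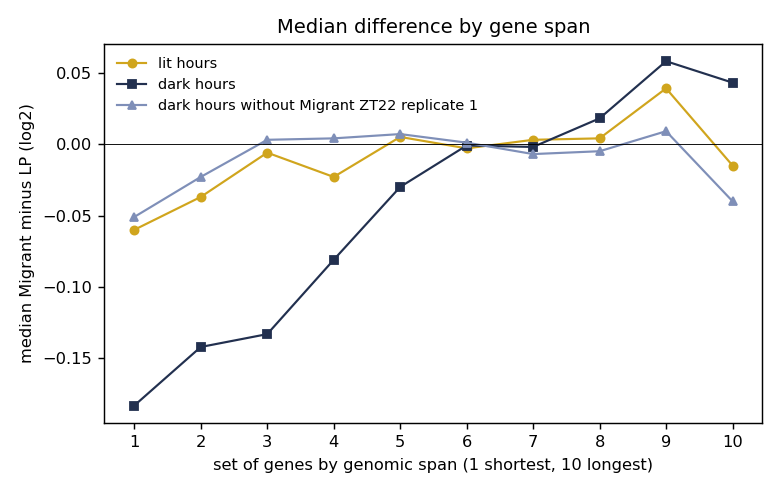
Median Migrant minus LP difference (log2 of scaled FPKM plus 1) over the tested genes, in 10 sets by genomic span from shortest (1) to longest (10), in lit hours, dark hours, and dark hours without Migrant ZT22 replicate 1. The dark line runs from −0.18 to 0.04, and without that library it runs from −0.05 to −0.04.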

How the data were processed

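RNA sequencing (50 base, single end) of 48 pooled brain libraries was processed by the authors with CASAVA 1.8.2, TopHat2 and Cufflinks, per the submitters' processing notes, and the deposited unit is FPKM per gene with confidence limits. The genome build and the other versions are not given in the sources used here. FPKM was scaled by the median ratio and analysed as log2 of the value plus 1. In R 4.3.3, limma 3.58.1 (trend and robust options, Benjamini-Hochberg adjustment, two-sided) fitted 28 libraries with 14 means of group and time. The p-values measure only the spread between pools of one group and time. Reads were recovered as the square of 2 times FPKM over the distance to its upper limit. Within 0.05 of a whole number were 82.5% to 85.1% of values under 30 reads, so no count model was the main test, and limma's voom on these reads was an alternative. The RefSeq gene table of assembly MEX_DaPlex matched 0 identifiers, so at most 2 genes per direction and comparison were named by rule. Replicate numbers showed no pairing of the samples in a correlation across all genes, as described with the alternatives. Alternatives covered scaling, pseudocount, filter, model, libraries and weights. The main model was also run on simulated data with the same spread in all libraries for each gene. The unequal spread of the real groups was not tested by it. Members, named-gene rule and lists were chosen with earlier results of these data known.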

Additional observations from a re-analysis of the deposited data

Results flagged for a closer look

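In 52 sets of values of 4 to 10 libraries, the highest or lowest library was tested for distance from the rest of its group, where chance marks about 1 in 20. DPOGS213995 was marked in LP, at 34.4 in lit hours and 89.6 in dark hours, both from a few reads. DPOGS211342 was marked at 2872 in LP in dark hours, and DPOGS214529 at 7.57 in Migrant in lit hours. The 2872 of DPOGS211342 came from ZT22 replicate 2, labelled male, where replicate 1 held 866. At each lit time LP replicate 2 of DPOGS211342 also lay above replicate 1, while at ZT19 it did not (1241 and 1268). A difference of this gene by replicate or sex label was not tested. DPOGS207200 was marked in Migrant in dark hours at 85.4 and the size factor of the dark Migrant libraries at 0.749, both from ZT22 replicate 1. DPOGS209661 (scaffold DPSCF300544, 24524 to 24630), chosen after its values were seen, was marked at 35.9 in Migrant ZT22 replicate 2, from 1 read. It was listed at 0 in all other libraries of the contrasts, and it was the third gene called in the difference of contrasts without Migrant ZT22 replicate 1, where that lone pool stands for ZT22.

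The Migrant minus LP difference itself differed between lit and dark hours in the test across all genes for DPOGS204644 (−1.18), DPOGS209146 (0.89) and DPOGS214162 (0.75). The values by library are given with these genes above, and no cause was tested.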

How the results depend on the processing

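The count of lit calls stayed within 1.5 times under all 49 alternatives (3897 to 7216), with 4389 to 6549 when single libraries were left out. Dark calls did so under 45 of 49, and the exceptions were FPKM as deposited (7386), the dark libraries alone (2710), array weights (2103) and the data without Migrant ZT22 replicate 2 (6427), which leaves the library that stood apart to stand for ZT22. Leaving out single libraries gave 3559 to 6427 dark calls. Shared calls moved with FPKM as deposited (6357) and array weights (2053). Unscaled FPKM left 11.3% of lit calls and 8.46% of dark calls higher in Migrant, against 48.7% and 47.6%. Under it the lit difference of DPOGS209146 was −0.17. The dark differences of DPOGS214162 (−0.48, limma, adjusted p = 0.000449) and DPOGS204644 (−0.65, adjusted p = 0.00029) were then called. That these 2 genes were not called in dark hours thus depends on the scaling, while the difference of contrasts still called 3 genes. Voom on recovered reads gave 5141 lit, 4543 dark and 3738 shared calls and 3 for the difference. All 48 libraries together gave 3967, 3227 and 2632 lit, dark and shared calls.

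The difference of contrasts depended on single libraries. Its count was 5 with no filter, and 0 with 4 means in place of 14 (294 at an unadjusted p under 0.05), array weights (205) or without time point ZT4, ZT7, ZT10, ZT16 or ZT19 (262 to 436). Leaving out 1 library gave 0 to 2964, the highest without Migrant ZT22 replicate 2, and 28 without Migrant ZT10 replicate 1. Of the 25 higher of these 28, 24 had Migrant ZT10 replicate 2 above the other 13 Migrant libraries. Counts of 5, 6 and 5 came without LP ZT1 replicate 2, Migrant ZT16 replicate 1 and Migrant ZT16 replicate 2. A count of 1 came without LP ZT10 replicate 2, LP ZT16 replicate 1 or LP ZT19 replicate 2. It was 0 without LP ZT4 replicate 2, LP ZT10 replicate 1, LP ZT16 replicate 2, LP ZT19 replicate 1, Migrant ZT1 replicate 1 or Migrant ZT4 replicate 1, and without either replicate of LP ZT7 or LP ZT22 (284 to 340 at an unadjusted p under 0.05). Where a group is left with 1 pool at a time, that pool is assumed to vary like the others. Leaving out ZT22 in both groups was the planned removal of that time. Leaving out Migrant ZT22 replicate 1 and ZT10 replicate 1 together, chosen after seeing the data, gave 79. The calls of DPOGS204644, DPOGS209146 and DPOGS214162 were lost under 21, 25 and 32 of 48 alternatives, with the sign kept in all, and the dark call of DPOGS215159 under 25 of 49. The dark call of DPOGS213995 was lost under 1. The causes were not tested.

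Replicate 1 minus replicate 2 of LP correlated with that of Migrant at −0.127 to 0.111 across genes over the 7 times. The numbers also mark the sex label, and across all genes this check showed no pairing. It cannot show whether single genes differ by sex label in both groups. With a replicate block the counts were 5022 lit, 4339 dark, 3581 shared and 0 for the difference (limma: 373 below 0.05 before adjustment, and adjusted p = 0.0545 for DPOGS204644 and 0.0576 for the other two).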
